A study of Mus musculus with 6 samples.

Results

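The small RNAs of wild-type (WT) mouse bone marrow were described from 3 libraries, those whose titles carry the label WT, of 6 in the series. The other 3 libraries, from mice labelled Mat KO, were not analysed here, and nothing is compared between the genotypes. The series title places the study at the Dlk1-Gtl2 imprinted locus and in long-term haematopoietic stem cells. Per the series' design text the cells were Lin-, meaning bone marrow cells that lack the surface markers of mature blood lineages, a mixture of progenitors in which stem cells are a small minority. The labels of the WT libraries give the genotype as wildtype and the source as bone marrow cells. The labels give no strain, age, sex or number of animals behind a library. The labels do not say that the 3 libraries came from separate mice, so the standard deviation (SD) over them may be technical spread.

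Small nucleolar RNAs (snoRNAs) are stable non-coding RNAs of the nucleolus that guide chemical changes at single bases of ribosomal RNA. C/D box snoRNAs carry a C box near the start and a D box near the end and guide methylation of the ribose. H/ACA box snoRNAs are usually longer, fold into a pair of hairpins, end shortly after the trinucleotide ACA and guide the change of uridine to pseudouridine. In mammals most snoRNAs lie in introns of a host gene and are trimmed out of the spliced intron, so the output of a host's promoter is shared by all snoRNAs inside it.

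The libraries held 53299322, 45398303 and 50775854 counts in WT replicates 1, 2 and 3. The inserts had been selected on a gel for the size of snoRNAs, a cut meant to leave out mature miRNAs and long RNAs. Insert lengths were not examined, so carry-over of shorter or longer RNAs was not tested. A read was worth 0.0188 to 0.0220 CPM (the count of a feature per 1000000 counts of its library). Levels below about 1 CPM therefore rest on few reads. Of the 1823 features listed in the series, 1612 had a read in a WT library and 1017 had one in all 3. The 374 features seen in only 1 of the 3 libraries had 479 reads together, at most 7 each. A few groups of RNAs set single libraries apart. Precursor regions of miRNAs were highest in WT replicate 2, the H/ACA snoRNA Gm25117 and the Rnu3b genes were highest in WT replicate 3, and Snord15a was highest in WT replicate 1. Their values are given beside the results they touch.

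The 5 most abundant snoRNAs by reads are shown first because together they set the profile, and each has both boxes. Capitals mark TGATG of the C box and CTGA of the D box. The sequences, written 5′ to 3′ on the strand of the gene, are those of the GENCODE M21 transcripts on GRCm38. Gm26224 lies at chr1:161035394-161035473 on the plus strand and Gm25789 at chr1:161038308-161038383 on the plus strand, both in introns of Gas5. Snord49a lies at chr11:62603450-62603521 on the plus strand in an intron of 2410006H16Rik. Snord68 lies at chr8:123103038-123103123 on the plus strand in an intron of Rpl13, and Snord2 at chr16:23108953-23109021 on the plus strand in an intron of Eif4a2.
Gm26224: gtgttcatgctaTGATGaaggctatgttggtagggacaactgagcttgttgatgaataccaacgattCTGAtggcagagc
Snord49a: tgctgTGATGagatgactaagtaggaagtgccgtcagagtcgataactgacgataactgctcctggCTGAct
Gm25789: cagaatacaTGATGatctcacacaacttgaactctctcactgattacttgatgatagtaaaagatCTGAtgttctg
Snord68: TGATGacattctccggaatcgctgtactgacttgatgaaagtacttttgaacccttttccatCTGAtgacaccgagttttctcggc
Snord2: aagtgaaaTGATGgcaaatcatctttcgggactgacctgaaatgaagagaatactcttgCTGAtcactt

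A handful of C/D snoRNAs made up most of each library. Gm26224 alone had 9568027, 7892324 and 8567385 reads in WT replicates 1 to 3, a level of 179515, 173846 and 168730 CPM. That was 17.4% ± 0.540 of the reads (SD, n = 3), and Gm26224 ranked 1 in every library. The 10 most abundant features held 64.5%, 65.6% and 63.0% of the reads in the 3 libraries. In WT replicates 1 to 3, 50% of the reads fell on 6, 6 and 7 features and 90% on 28, 27 and 29 features. The leading 100 features held 98.8% to 98.9%, so that over 1000 further features per library shared the rest.

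**Figure D1:**
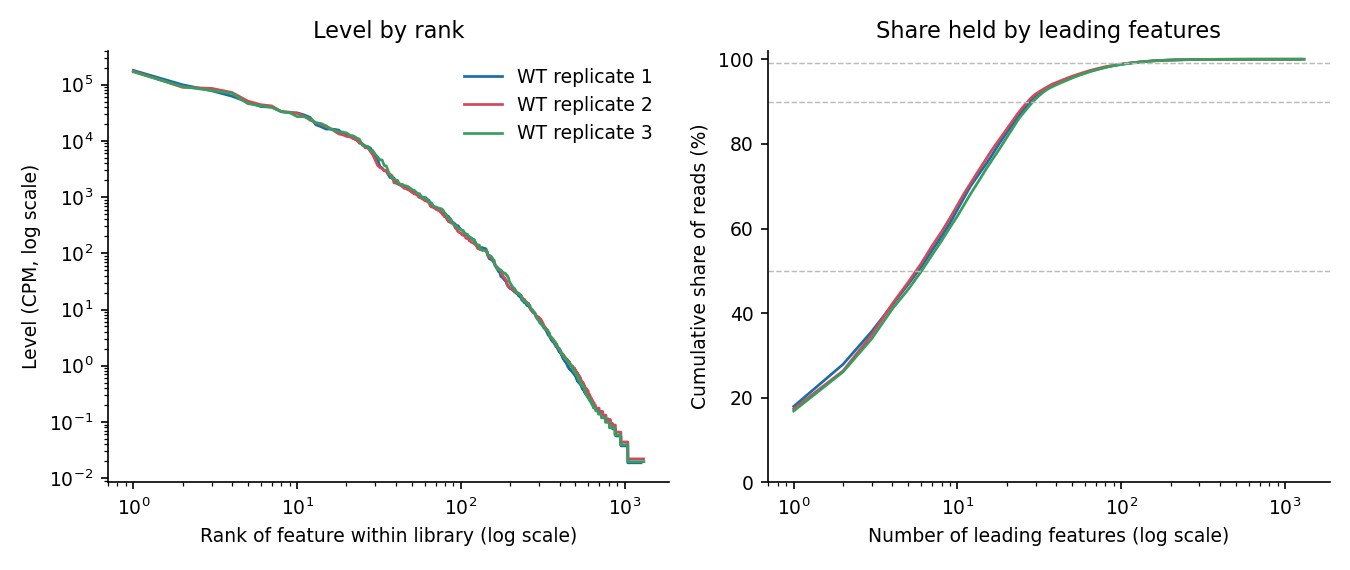
Left, the level of each feature in CPM (log scale) against its rank within the library (log scale), 1 line per WT library. Right, the share of reads held by the leading features, with dashed lines at 50%, 90% and 99%. The 3 lines lie almost on top of each other, and 6 to 7 features reach 50%.

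The order of the leading RNAs by reads was stable over the libraries. Snord49a had 99452, 89575 and 92151 CPM, a mean of 93726 ± 5123 CPM (SD, n = 3). Gm25789 had 77984, 85953 and 78880 CPM, a mean of 80939 ± 4365 CPM. Snord68 had 62314, 72679 and 70109 CPM, a mean of 68367 ± 5397 CPM. The ranges of these 3 and of Gm26224 did not overlap, and the 4 took ranks 1 to 4 in the same order in all 3 libraries. The 45S pre-rRNA, the long precursor that is cut into the ribosomal RNAs, was the only feature of the leading 25 that is not a snoRNA. It had 48808, 50994 and 45937 CPM, and its length is not in the reference used here. Since the gel cut was meant to leave out long RNAs, these reads are not taken as a level of the whole precursor. Which part of it they came from was not tested.

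Whether a longer RNA gave more reads per molecule here was not tested, and the protocol as summarised below names no fragmentation step. An order in CPM is therefore an order of reads. As a second scale, counts were divided by feature length and rescaled so that the features of a library sum as CPM do (length-scaled CPM, lsCPM). If reads per molecule do not grow with length, this scale lowers longer features, so its order between features of unlike length is uncertain. On this length-scaled level Gm26224 was at 175804 ± 5386, Snord49a at 105195 ± 5550, Gm25789 at 86075 ± 4855 and Snord68 at 64253 ± 5193 lsCPM (SD, n = 3). Next came Gm23301 of Rpl17 at 51285 ± 1736 and Snord2 at 48533 ± 2870 lsCPM. Those neighbours could not be placed in order, since Gm23301 ranged from 49284 to 52393 and Snord2 from 46151 to 51720. Gm23969 of Rpl7a followed at 35210 ± 1175 lsCPM and did not overlap with either. Gm24299 of Taf1d at 28181 ± 1532, Gm25878 of Zfas1 at 27776 ± 1025 and Snord21 of Rpl5 at 26478 ± 2822 lsCPM overlapped with each other. The 24 snoRNAs among the 25 features with the most reads were also the first 24 on the length-scaled level.

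**Figure D2:**
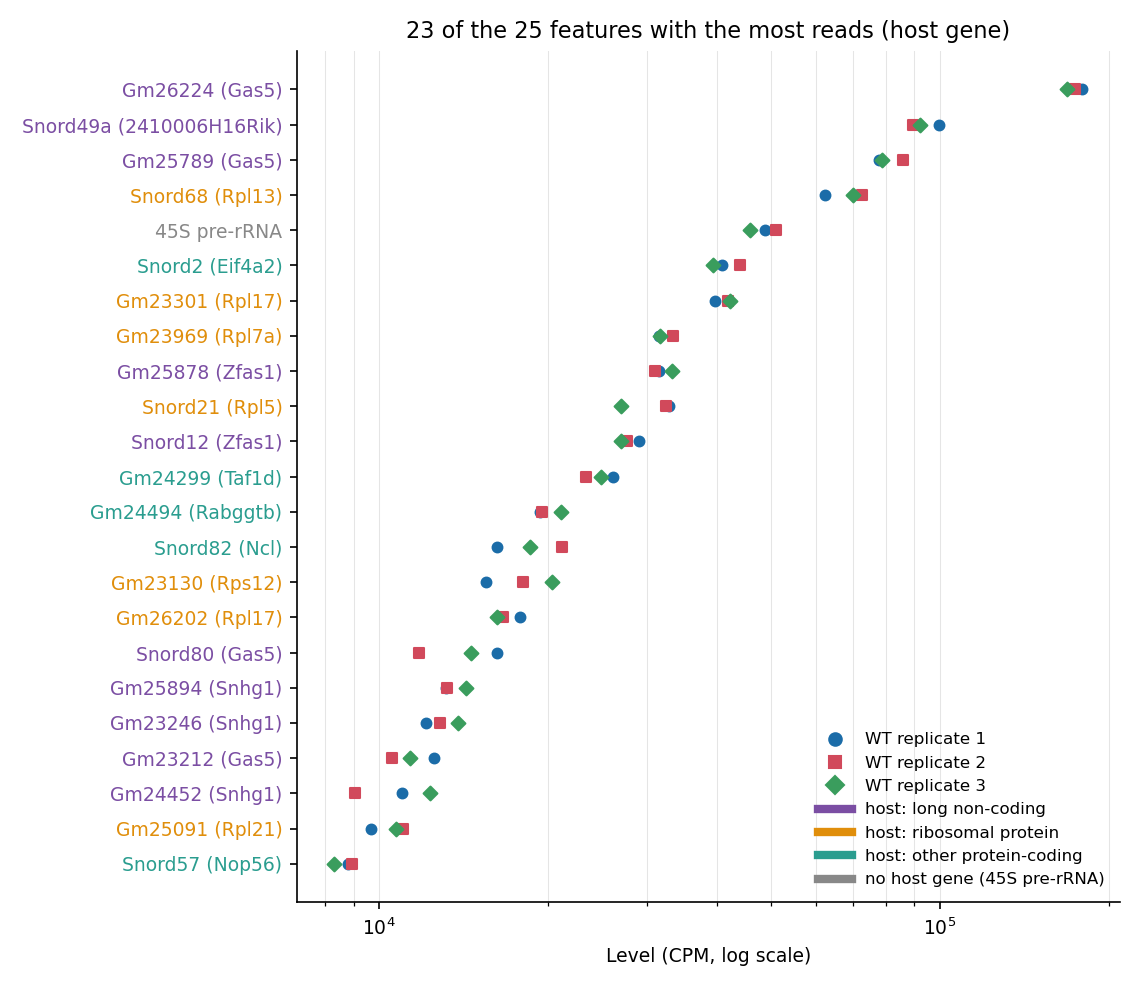
Level in CPM (log scale) of 23 of the 25 features with the most reads, 1 point per WT library, with the host gene in brackets and its type in colour. Gm26224 lies at 168730 to 179515 CPM, apart from the rest, and Snord57 closes the list at 8315 to 8948 CPM.

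The genes that carry the leading snoRNAs are mostly parts of the translation machinery or non-coding hosts. Rpl13, Rpl17, Rpl7a, Rpl5, Rps12 and Rpl21 encode ribosomal proteins, Eif4a2 encodes an RNA helicase of translation initiation, Ncl encodes nucleolin and Nop56 encodes a core protein of the C/D snoRNA particle itself. Snord57, the snoRNA of Nop56, had 8788, 8948 and 8315 CPM. Snord82, in an intron of Ncl, had 16209, 21144 and 18581 CPM, with its highest level in WT replicate 2. The same 25 features led in each of the 3 libraries. Agreement loosened slowly below that, with 47 features shared by the leading 50 of all 3 libraries and 93 shared by the leading 100.

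By annotated class, C/D snoRNAs took 93.4%, 92.9% and 93.0% of the reads in WT replicates 1 to 3, a mean of 93.1% ± 0.287 (SD, n = 3) over 208 features. GENCODE does not divide snoRNAs by box, so features named Snord or up to 110 nt long were taken as C/D and features named Snora or longer ones as H/ACA. The 45S pre-rRNA feature took 4.86% ± 0.254 of the reads, from inserts shorter than the precursor. Features annotated as miRNA took 0.942% ± 0.0857 (770 features), H/ACA snoRNAs 0.602% ± 0.319 (200 features) and small nuclear RNAs (snRNAs) 0.404% ± 0.0208 (323 features). The mitochondrial rRNAs, U3, the mitochondrial tRNAs and the miscellaneous RNAs each held less than 0.04% on average, and U3 exceeded that in WT replicate 3 with 0.0493%. The class of Cajal body RNAs holds only 2 features, Scarna10 and Scarna9, which GENCODE annotates as snoRNAs. None of the 354 genes annotated as rRNA was listed in any of these libraries. The same held for the 51 annotated as small Cajal body RNAs and the 22 annotated as ribozymes. A gene that is not listed may have had no read or may have been outside the annotation that was counted, and this was not tested.

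**Figure D3:**
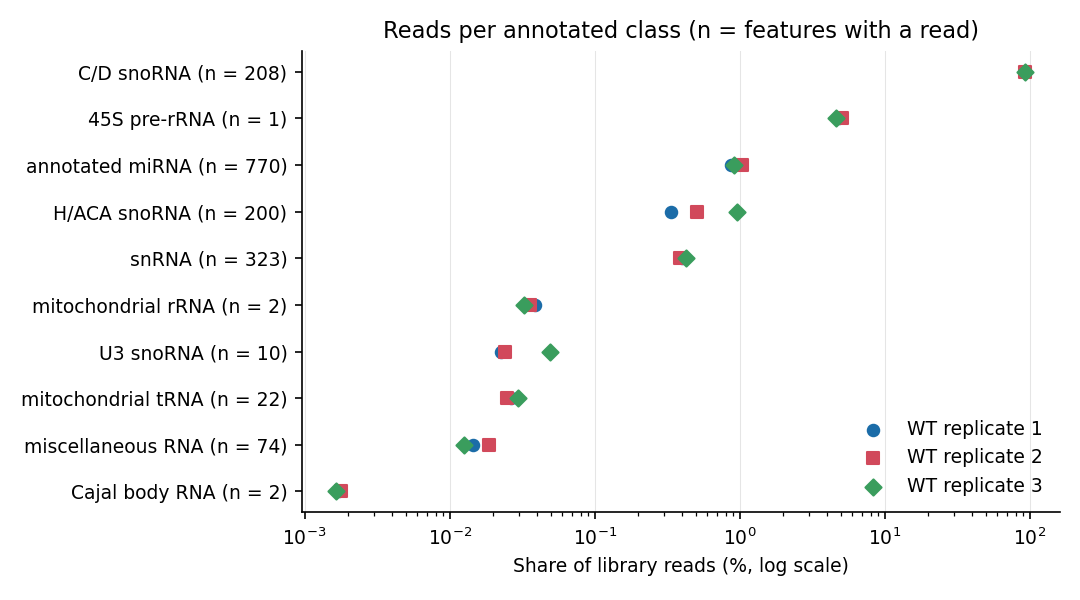
Share of library reads (%, log scale) per annotated class, 1 point per WT library, with the number of features that had a read. C/D snoRNAs lie at 92.9% to 93.4%, while H/ACA snoRNAs spread from 0.339% in WT replicate 1 to 0.957% in WT replicate 3 and U3 is highest in WT replicate 3.

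The gap between C/D and H/ACA snoRNAs was also seen per feature. On the length-scaled level the median C/D snoRNA with a read was at 116 lsCPM, with quartiles of 0.317 and 1076. The median H/ACA snoRNA was at 0.512 lsCPM, with quartiles of 0.0316 and 2.98. The quartile ranges overlap, so abundant H/ACA snoRNAs exceed weak C/D snoRNAs. Features of 61 to 90 nt held most of the reads, 41.3% ± 0.417 for 61 to 75 nt and 43.7% ± 0.323 for 76 to 90 nt, and the cut of the gel can set this share.

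Non-coding host genes supplied most of the snoRNA reads. Of the reads on snoRNAs, 54.8% ± 1.25 fell on 93 snoRNAs in long non-coding hosts, 28.7% ± 0.858 on 58 snoRNAs in ribosomal protein genes and 16.4% ± 0.428 on 190 snoRNAs in other protein-coding genes (SD, n = 3). Only 0.129% ± 0.0201 fell on the 79 snoRNAs with no host on their strand. These shares lean on a few members. Without Gm26224 the non-coding hosts held 44.5%, the ribosomal protein genes 35.3% and the other protein-coding genes 20.1%. The typical member was highest in ribosomal protein genes, where the median length-scaled level was 118 lsCPM (quartiles 5.79 and 957). It was 5.01 lsCPM in non-coding hosts (quartiles 0.0113 and 995), 3.17 lsCPM in other protein-coding genes and 0.0288 lsCPM without a host. Of the 93 snoRNAs in non-coding hosts, 30 lie in Snhg14. They had 0.303 CPM together and none was seen in all 3 libraries, so the median of non-coding hosts leans on that cluster. No test was made, and the quartile ranges of the hosted groups overlap.

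Whether an annotated snoRNA was seen at all differed widely with its host. GENCODE M21 annotates 1507 snoRNAs, and 420 of them, 27.9%, had a read in a WT library. All 58 snoRNAs inside ribosomal protein genes had a read, and 52 of them, 89.7%, reached a mean of at least 100 counts. Of the snoRNAs in other protein-coding genes 190 of 292 had a read, 65.1%. For long non-coding hosts it was 93 of 314, 29.6%, with 30 of the 93 in Snhg14, and without a host on the strand 79 of 843, 9.37%. How many of the 314 annotated ones lie in Snhg14 is not given here, so the part of that cluster in the 29.6% is not known. The order was the same within each box class. For H/ACA snoRNAs the shares were 20 of 20 in ribosomal protein genes, 104 of 187 in other protein-coding genes, 17 of 49 in non-coding hosts and 59 of 727 without a host. For C/D snoRNAs they were 38 of 38, 76 of 95, 76 of 265 and 18 of 114.

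Position in the host was mostly intronic. Of the reads on hosted snoRNAs, 95.5% ± 0.248 fell on 295 snoRNAs inside introns, 4.34% ± 0.235 on 37 that lie within an annotated exon of some transcript, and 0.191% ± 0.0385 on 9 that cross an exon's edge. Gm24299, at chr9:15314074-15314144 on the plus strand within an annotated exon of Taf1d, held most of the exonic share. It had 26128, 23328 and 24826 CPM. Taf1d encodes a subunit of the factor that recruits RNA polymerase I to ribosomal DNA.

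A total of 10 host genes held 77.2% of all reads and 82.3% of the snoRNA reads. Gas5, a non-coding gene whose spliced transcript is rapidly degraded in growing cells, held 30.4%, 29.7% and 29.1% of all reads in WT replicates 1 to 3. The non-coding host 2410006H16Rik held 9.58% ± 0.524, Rpl13 6.84% ± 0.540, Zfas1 6.08% ± 0.116 and Rpl17 5.88% ± 0.0476 (SD, n = 3). Snhg1, Eif4a2, Rpl7a and Rpl5 held between 3.08% and 4.60%. Gas5 stood clear of every other host. Below it the ranges of Zfas1 (5.95% to 6.16%) and Rpl17 (5.82% to 5.91%) did not overlap in reads, while that of Eif4a2 (3.95% to 4.41%) enclosed all 3 values of Rpl7a. The order of Zfas1 and Rpl17 turned on the length-scaled level, where Rpl17 held 7.31% ± 0.0722 and Zfas1 5.37% ± 0.0898 (SD, n = 3), and the mean of Rpl17 then also passed that of Rpl13.

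SnoRNAs of the same host differed greatly in level. Among 44 hosts with at least 2 snoRNAs of a mean of 100 counts or more, the highest member exceeded the lowest by a median of 23.2-fold on the length-scaled level, with a range from 1.02 to 9317. The ratio was over 10 in 26 hosts and under 2 in 7 hosts. Some of these ratios set C/D against H/ACA-length members, which the gel cut may favour unequally. Copies that share reads, such as the Rnu3b genes, give low ratios. Ncl had the widest ratio, with Snord82 at 21530 and the H/ACA snoRNA Snora75 at 2.31 lsCPM. Prrc2b had the narrowest, with Gm25632 at 19.0 and Gm22192 at 19.4 lsCPM. Both of its members are 85 nt long and neither was the higher in all 3 libraries. Whether reads were split over them was not tested. These 2 hosts were named after their values were seen.

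Gas5 showed the pattern along a single transcript. In the order of its introns the length-scaled levels were 175804 for Gm26224, 1993 for Gm22489, 995 for Gm22357, 15444 for Gm23212 and 314 lsCPM for Snord78. They went on with 1876 for Mir5117, 14152 and 4419 for the overlapping pair annotated as Snord80, 8238 for Snord47 and 86075 lsCPM for Gm25789. The first and the last were the highest, and those between them did not follow their order. Mir5117 carries a miRNA's symbol but is annotated as a snoRNA of 84 nt. Snord78, the lowest, had 310, 197 and 262 CPM, and Gm26224 exceeded it by 477 to 727-fold on the length-scaled level in the 3 libraries.

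Other leading hosts showed the same unevenness. In Snhg1, Gm25894 was at 14610, Gm24452 at 12102 and Gm23246 at 15607 lsCPM, while Snord22 at the edge of an exon was at 14.0 lsCPM. In Zfas1, Gm25878 and Snord12 were at 27776 and 25038 lsCPM and Gm23201, which lies between them, at 865. Several pairs set a C/D snoRNA against H/ACA snoRNAs of the same gene. In Rpl5, Snord21 was at 26478 lsCPM and the H/ACA-length Gm22270 and Gm26387 were at 4.05 and 5.90. In Eif4a2, Snord2 was at 48533 and the 4 H/ACA-length members ranged from 0.410 for Snora81 to 41.1 lsCPM for Gm26447. The value of Snora81 is uncertain, since the annotated miRNA Gm49346 overlaps it on the same strand and took 88.8% of the reads of the pair, and the next lowest member was Gm24616 at 0.696 lsCPM. Since the gel cut favours some lengths, differences between C/D and H/ACA members of a host cannot be told apart from that selection. The differences among the C/D members of Gas5, 60 to 84 nt long, were as wide as 559-fold.

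**Figure D4:**
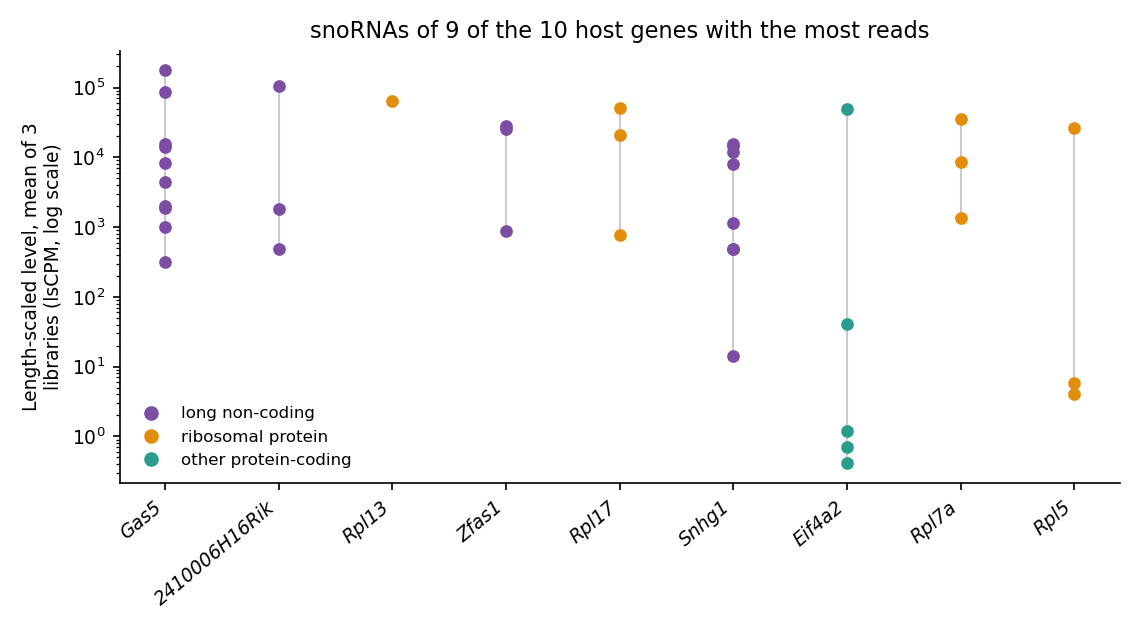
Length-scaled level (lsCPM, log scale, mean of 3 WT libraries) of every snoRNA with a read in 9 of the 10 host genes with the most reads, coloured by host type, 1 point per snoRNA. Members of 1 host spread over orders of magnitude, for example from 314 to 175804 lsCPM in Gas5, and Rpl13 holds a single snoRNA.

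Box motifs were more frequent among abundant snoRNAs. The letters TGATG within the first 25 nt and CTGA within the last 25 nt, on the strand of the gene, were both found in 350 of all 512 annotated C/D snoRNAs, 68.4%. The share was 57.9% among the 304 without a read, 71.4% up to 1 CPM, 80.0% from 1 to 100 CPM, 90.6% from 100 to 1000 CPM and 92.6% (50 of 54) above 1000 CPM. Among features with a read that are not snoRNAs, 3 of 1189 held both. Of the 4 abundant C/D snoRNAs without this exact pair of motifs, Gm25894 and Snord57 were among the leading 25. A search for exact letters misses boxes that differ by a base, so no match says only that these letters are not in the window.

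For H/ACA snoRNAs the letters ACA within the last 7 nt were found in 63.3% of all 983 annotated features and in 58.6% of the 783 without a read. Among those with a read the share was 76.9% up to 1 CPM and 88.9% from 1 to 100 CPM. Only 2 of the 5 features between 100 and 1000 CPM held it. In features with a read that are not snoRNAs it was found in 13.5%, so this motif separates the classes less than the C/D pair does.

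A single H/ACA snoRNA carried most of its class in WT replicates 2 and 3 and varied widely. Gm25117 is a 144-nt feature at chr10:111481493-111481636 on the plus strand, in an intron of Nap1l1, which encodes a histone chaperone. It is shown because its level sets the H/ACA share, with the ACA box in capitals.
Gm25117: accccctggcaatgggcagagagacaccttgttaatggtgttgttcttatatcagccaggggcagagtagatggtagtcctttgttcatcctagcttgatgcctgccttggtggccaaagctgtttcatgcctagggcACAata

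Gm25117 had 69477, 145829 and 342742 reads in WT replicates 1 to 3, or 1304, 3212 and 6750 CPM. It ranked 49, 33 and 28 in these libraries, and its mean was 3755 ± 2764 CPM (SD, n = 3). It made up 38.5%, 63.0% and 70.6% of the H/ACA reads. The H/ACA share of all reads was 0.339%, 0.510% and 0.957%, and without Gm25117 it was 0.208%, 0.189% and 0.282%. The ratio of C/D to H/ACA reads was 276, 182 and 97.2 in the 3 libraries. Without Gm25117 it was 448, 492 and 330. The order of WT replicates 1 and 2 thus depends on this feature, and WT replicate 3 had the lowest ratio either way.

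Few H/ACA snoRNAs were highest in WT replicate 2. The one with the next most reads, Gm22884 in an intron of G3bp1, had 533, 478 and 632 CPM. Of the 74 H/ACA snoRNAs with a mean of at least 100 counts, Gm25117 among them, 37 were highest in WT replicate 3, 33 in WT replicate 1 and 4 in WT replicate 2. Of all 393 features with that mean, 34.9% were highest in WT replicate 3. Among the 147 C/D snoRNAs with that mean, 85 were highest in WT replicate 1, 12 in WT replicate 2 and 50 in WT replicate 3. Those counts are 57.8%, 8.16% and 34.0%. With TMM scaling, which adjusts for differences in library make-up, 6 H/ACA and 24 C/D snoRNAs were highest in WT replicate 2. Of all features it was then 28.2%.

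SnoRNAs that act in the cutting of pre-rRNA were all detected. The 19 features of this list summed to 1414, 1408 and 1784 CPM. Most of it came from the U14 family in introns of Hspa8, which encodes a chaperone. Snord14d had 584, 590 and 648 CPM and Snord14c had 396, 383 and 426 CPM. At 571 and 378 lsCPM both lay above the median C/D snoRNA, while the other features of the list were at 3.82 to 56.4 lsCPM. Most of those others are much longer than Snord14c and Snord14d, and the part of the gel cut in these differences was not tested. Snord118 (U8), which acts on the precursor of the large subunit RNAs, had 55.7, 47.2 and 46.1 CPM.

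U3, the snoRNA needed for the first cuts of pre-rRNA, is annotated at 5 loci, each of them as 2 features with ends that differ by 1 base, and all 10 features were detected. The Rnu3a locus, both features summed, had 66.8, 71.6 and 81.8 CPM. The 4 Rnu3b genes, Rnu3b1 to Rnu3b4, lie inside Tex14 on chromosome 11 and are near-identical copies. Their 8 features had 19.4 to 21.2 CPM in WT replicate 1, 19.8 to 22.4 in WT replicate 2 and 50.1 to 52.5 in WT replicate 3. The features drew nearly equal counts within each library, and since reads are split over both annotations and over the copies, the level of a single one is uncertain. The U3 total was 0.0228%, 0.0240% and 0.0493% of the reads. The Rnu3b features are 215 or 216 nt long, and the part of the gel cut in the difference between libraries was not tested.

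Spliceosomal snRNAs and U7 summed to 852, 763 and 917 CPM over 10 detected features, and 2 of the list's symbols, Rnu4atac and Rnu6atac, have no entry of that name in GENCODE M21. Rnu7, which directs the cutting of histone mRNA ends, had 262, 210 and 255 CPM. Rnu1b1 and Rnu1a1, copies of U1, had 127, 115 and 117 CPM and 126, 112 and 115 CPM. Rnu12, of the minor spliceosome, was apart in WT replicate 3 with 58.8, 67.0 and 147 CPM. Provisional snRNA features of U2 length in D230017M19Rik, Gm25939 and Gm24497, had 197, 230 and 258 CPM and 158, 187 and 195 CPM. As a class snRNAs were the steadiest of those with many members, with a median coefficient of variation (CV, the SD as a share of the mean) of 10.5% over 53 features. Several of these features are copies over which reads can be split, so they are not independent members.

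RNAs made by polymerase III summed to 113, 139 and 97.7 CPM over 6 features. Rn7sk, which holds a transcription elongation factor inactive, had 38.9, 40.5 and 30.6 CPM. Rn7s2, a gene for the RNA of the signal recognition particle, had 22.8, 39.0 and 18.4 CPM, highest in WT replicate 2. The Y RNA Rny1 had 26.6, 21.3 and 30.8 CPM. Rmrp, Rpph1 and the Rprl genes were not listed. Terc, the RNA template of telomerase, had 27, 24 and 28 reads, a level of 0.529 ± 0.0224 CPM, with Scarna10 and Scarna9 of the Cajal body at 11.0 ± 0.975 and 6.15 ± 0.834 CPM.

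Mitochondrial features summed to 652, 610 and 618 CPM, and all 24 were seen in every WT library. The rRNA genes mt-Rnr2 and mt-Rnr1 had 209, 205 and 177 CPM and 178, 155 and 147 CPM. Of the 22 tRNA genes mt-Th had the most reads, with 106, 83.0 and 95.7 CPM. The next, mt-Ta, had 37.1, 74.6 and 82.9 CPM and was lowest in WT replicate 1.

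SnoRNAs of the imprinted clusters were rare in these cells. The 10 features with a read between Dlk1 and Dio3, the locus named in the series title, summed to 1.63, 2.33 and 1.85 CPM. On the other imprinted cluster, between Snurf and Ube3a on chromosome 7, 32 snoRNAs had a read and summed to 0.826, 0.595 and 1.08 CPM. Only 2 of those 32 were seen in all 3 libraries. Snord64 had 25, 17 and 22 reads and Snord107 had 5, 3 and 8.

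The class annotated as miRNA held several kinds of RNA. The largest part was Snord43, a feature of 108 nt at chr15:80082847-80082954 on the minus strand in an intron of Rpl3, with the biotype miRNA and a snoRNA's symbol. It had 5290, 4502 and 5196 CPM and ranked 30, 30 and 31. It held 60.7%, 43.4% and 56.6% of the class's reads, more than all other members together in WT replicates 1 and 3 but not in WT replicate 2. Its sequence is shown with TGATG and the last CTGA in capitals, since the former starts beyond the first 25 nt that the box search covered.
Snord43: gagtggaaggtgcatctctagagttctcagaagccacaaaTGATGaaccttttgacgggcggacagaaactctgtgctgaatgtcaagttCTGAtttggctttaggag

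Features grouped as named miRNA genes carry a Mir symbol or lie on a RefSeq miRNA hairpin on either strand. Provisional features can thus be among them. The group held 0.165%, 0.383% and 0.218% of all reads, a mean of 0.255% ± 0.114 over 393 features. A further 0.0916% ± 0.0137 lay on 4 features that match a 5S rRNA gene within 10% of their length, chosen after their values were seen. Gm47281 on chromosome Y had 368, 365 and 273 CPM, and Gm47276 on chromosome 16, which has the same sequence, had 350, 346 and 267 CPM. Both are identical to bases 33 to 92 of Gm26381, an annotated rRNA gene of 92 nt at chr16:41217745-41217836 on the plus strand. The shared stretch is in capitals in the second sequence.
Gm47281: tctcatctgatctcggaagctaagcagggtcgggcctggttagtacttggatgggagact
Gm26381: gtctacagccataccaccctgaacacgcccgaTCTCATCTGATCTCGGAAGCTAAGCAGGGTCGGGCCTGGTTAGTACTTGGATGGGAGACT

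Gm47285 differs from that stretch by 3 edits and had 206, 216 and 174 CPM, and Gm47301 differs by 2 edits and had 78.4, 60.5 and 43.6 CPM. All 4 were lowest in WT replicate 3. Whether reads of other 5S rRNA copies were counted on these features was not tested. Another annotated miRNA, mmu-mir-3535 in an intron of Ncl, encloses the C/D snoRNA Gm24148 on the same strand. It had 468, 632 and 623 CPM and Gm24148 had 428, 619 and 634 CPM, so both drew close to 50% of the reads of their shared place in each library.

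The miRNA genes with the most reads are shown by the mature miRNAs of their hairpins, from RefSeq on GRCm38, with the seed, bases 2 to 8, in capitals. They are given to show which families the genes belong to. The gel cut was meant for inserts longer than a mature miRNA, and whether mature miRNAs were also counted was not tested. The let-7 miRNAs share the seed GAGGUAG and both Mir26a genes give a miRNA with the seed UCAAGUA. None is shown for Mir30d.
mmu-miR-21a-5p: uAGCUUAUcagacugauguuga
mmu-miR-148a-3p: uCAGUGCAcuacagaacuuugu
mmu-let-7i-5p: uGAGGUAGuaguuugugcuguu
mmu-let-7f-5p: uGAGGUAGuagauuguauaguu
mmu-miR-26a-5p: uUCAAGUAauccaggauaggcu
mmu-miR-10a-5p: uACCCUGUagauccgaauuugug

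Mir21a, a miRNA gene common to many tissues, had the most reads, with 512, 1430 and 735 CPM. Mir148a had 209, 662 and 351 CPM and Mir30d had 126, 211 and 136 CPM. Of the let-7 genes Mirlet7i had 76.3, 154 and 89.1 CPM and Mirlet7f-2 had 41.1, 90.2 and 52.4 CPM. Mir26a-1 had 47.3, 85.2 and 44.7 CPM. Each of these was highest in WT replicate 2.

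That order held for nearly the whole group. Of the 60 features grouped as named miRNA genes with a mean of at least 100 counts, 57 were highest in WT replicate 2, 95.0%. Of all 393 features with that mean it was 23.2%. The other 3 of the 60, including Mir100 and Mir1291 (named after its values were seen), were highest in WT replicate 1, and 47 of the 60 were lowest there. Features that lie opposite each other on a hairpin can share reads, so the 60 are not independent members. With TMM scaling, which adjusts for differences in library make-up, 58 were highest in WT replicate 2. WT replicate 2 also had the lowest total count, and over all 393 features its median deviation from the mean was -0.07 on the log2 scale. The part of a difference in size selection between the libraries in this was not tested.

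Markers of cell types could be read only through features of miRNA genes, because no mRNA was measured. All 12 genes of the primitive haematopoietic list had a read, and they summed to 51.2, 103 and 62.6 CPM. Most of it was Mir10a with 38.2, 85.1 and 50.7 CPM. Mir126a, a miRNA gene of Egfl7 known from stem cells and endothelium, had 29, 245 and 173 reads, or 0.544, 5.40 and 3.41 CPM, and was among the 5 features of highest CV. The myeloid list summed to 11.4, 24.1 and 16.0 CPM, with Mir223 at 8.61, 19.1 and 12.4 CPM. The T lymphoid list (Mir181 genes, which stem cells also express) summed to 16.3, 30.6 and 21.6 CPM, and the B lymphoid marker Mir150 had 0.694, 3.19 and 2.28 CPM. The erythroid list, of which Mir451a and Mir144 were found, summed to 1.14, 1.70 and 3.07 CPM and was highest in WT replicate 3. The list named Mir486 by symbols that GENCODE M21 does not use, so this sum leaves it out. Mir486 had 25, 33 and 48 reads, and Mir3107 on the opposite strand of the same place had 23, 45 and 39.

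Marker genes of other tissues had few reads. The muscle list had 5, 16 and 18 reads, the nerve list 42, 18 and 23 and the epithelial list 27, 37 and 40. Mir122 of liver had 20, 23 and 0 reads. The stromal list had 56, 153 and 114 reads, or 1.05, 3.37 and 2.25 CPM. How efficiently each precursor enters a library is unknown, so the sums of different lists were not compared. In these bulk libraries fewer cells of a type and less RNA per cell cannot be told apart.

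The spread over the libraries fell with abundance and exceeded counting error. Over the 393 features with a mean of at least 100 counts the median CV was 16.3%. It was 28.2% for means of 20 to 100 counts, 24.4% for 100 to 1000, 14.5% for 1000 to 10000, 12.9% for 10000 to 100000 and 6.68% above that. A chi-square statistic of the counts, computed only to see whether a pair could be 1 library listed again, was 634, 815 and 530 per degree of freedom for the pairs 1 and 2, 1 and 3, and 2 and 3. An exact copy would give no deviation at all, and the same library sequenced again, with counting error alone, would give about 1. Pearson's r of log2 CPM over these features, which share library and protocol and are not independent, was 0.986 to 0.989. A difference of over 2-fold between a pair of libraries was seen in 43 features for WT replicates 1 and 2, in 33 for 1 and 3 and in 29 for 2 and 3.

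**Figure D5:**
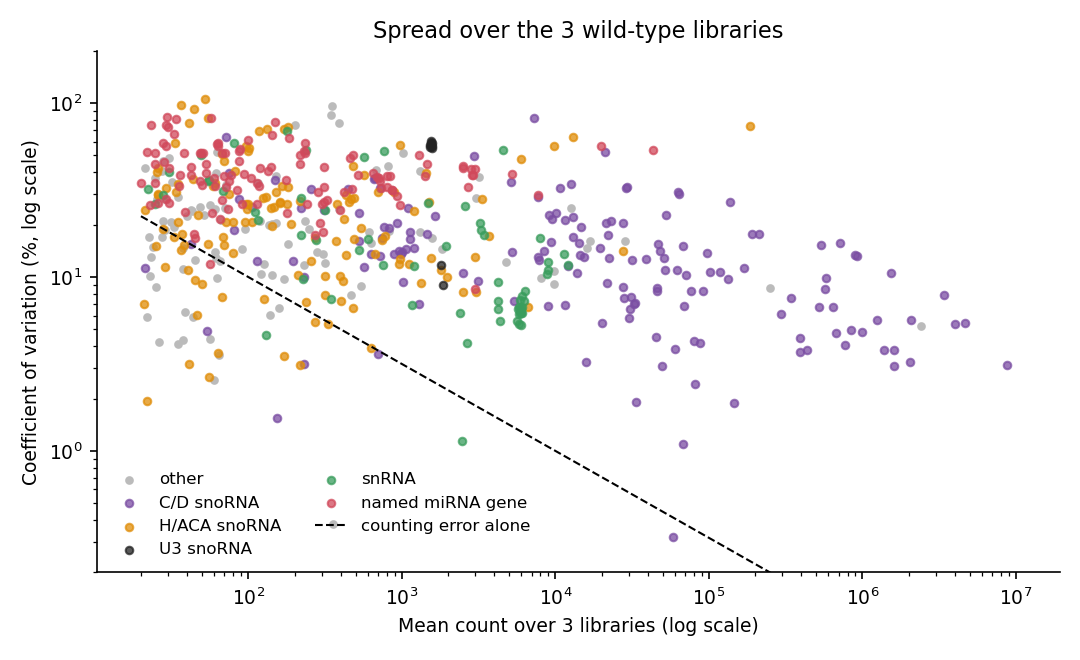
CV over the 3 WT libraries (%, log scale) against mean count (log scale) for features with a mean of at least 20 counts, coloured by class. The dashed line is the CV that counting error alone would give. Named miRNA genes and the U3 copies lie high for their counts, most C/D snoRNAs lie lower, and Gm25117 stands at the right with a CV of 73.6%.

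Classes differed in their spread. The median CV was 12.6% for 147 C/D snoRNAs, 37.8% for 60 named miRNA genes and 56.9% for the 5 U3 loci, of which the 4 Rnu3b copies are not independent members and Rnu3a had 10.4%. The CVs of 74 H/ACA snoRNAs had quartiles of 10.4% and 29.4%. The steadiest feature was Gm24134, a C/D snoRNA within an annotated exon of Rpl7a, with 1175, 1175 and 1182 CPM and a CV of 0.319%. Gm24837 in an intron of Ubap2 had 1372, 1348 and 1345 CPM, a CV of 1.09%. With 3 libraries some CVs are this small by accident, so neither is offered as a reference gene.

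Among features with a mean of at least 100 counts the widest spread was on Gm24105, an annotated miscellaneous RNA that matches Rn7s2, a gene for the RNA of the signal recognition particle, with 25 edits over 293 nt. It had 3.77, 15.6 and 2.86 CPM, a CV of 95.9%. Gm47299, an annotated miRNA of 80 nt, overlaps Rn7s2 on the same strand and matches it with 3 edits. It is not a separate locus, and 23.1% of the reads of the pair were on it. Gm47299 had 5.42, 15.4 and 3.72 CPM, a CV of 77.1%. Both were highest in WT replicate 2, as was Mir126a with a CV of 78.3%. Snord15a, in an intron of Rps3, was highest in WT replicate 1, with 14479, 2723 and 4449 reads and a CV of 82.3%. It is one of only 2 C/D snoRNAs with that mean count whose CV exceeded 50%.

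Features that lie on each other show how the counts were shared. Of the 5 pairs on opposite strands with a mean of at least 100 counts together, 3 split their reads between 40% and 60%. The provisional Gm24111 lies opposite Mirlet7f-1 and held 51.0%, 49.9% and 49.5% of the pair's reads in the 3 libraries. The other two were Mir126a and Mir126b, with 99.6% on Mir126a, and Mir142b and Mir142, with 61.4% on Mir142b. Of 23 pairs on the same strand 13 split between 40% and 60%, and of 9 pairs with identical sequence 8 did. In all, 315 features with 2.60% of the reads were copies of another feature or overlapped one, and their single levels are uncertain. Of the 25 features with the most reads, 1 was among them, the larger of the overlapping pair annotated as Snord80.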

How the data were processed

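Each library came as 1 deposited table of raw counts, a whole number of reads for each small RNA feature that the authors found at least once. Nothing records a normalization. Per the labels' protocols, total RNA was taken up with Trizol, ligated with a small RNA kit, amplified, cut from a gel at the size of snoRNAs plus adapters and sequenced on a NovaSeq. The submitters' processing notes name Trimmomatic 0.38, Bowtie2 2.3.4.1 and the build GRCm38. The counting tool, its annotation, the strand setting and the handling of reads with several matches were not given in the sources used here.

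Features were matched to GENCODE M21 genes by chromosome, start and end, and 1822 of 1823 matched. The last is the 45S pre-rRNA accession. Hosts are genes on the same strand that enclose a feature, protein-coding genes first. A feature missing from a library counts as 0. Levels are CPM of the library total, and means and SDs are over 3 libraries. No p-value was computed, because a single group is described. edgeR 4.0.16 (R 4.3.3) gave TMM and RLE scaling and a common biological CV of 28.9% over 592 features. The CV step was tested on simulated data. Totals ranged from 45398303 to 53299322 counts. Reads copied by PCR carry no molecular identifiers, so counts overstate the precision of a single library.

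The features named were the 25 highest by mean CPM, the 3 highest of each class, the highest and lowest member of the 10 leading hosts, the 5 highest and 5 lowest CVs among features with a mean of at least 100 counts, and members of the functional and marker lists. Some of these are not reported here. Others are named where stated or to show the members of a host, a matched sequence or a miRNA family. The members and lists were chosen with earlier results of these data known. Alternatives were the length-scaled level, the most abundant feature left out, copies summed, other minimum counts, other class and host rules, other scalings and each library left out.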

Additional observations from a re-analysis of the deposited data

How the results depend on the processing

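With each WT library left out in turn, 1 of 56 summary results moved by over 1.5 times, the liver marker list, at 0.188 in place of 0.294 CPM without WT replicate 2, and the others moved by at most 1.42-fold. The 18 results recomputed with TMM and with RLE scaling, the 6 with copies summed and the 4 with hosts on either strand stayed within 1 SD, or for counts within 1.5 times, of the reported value. Dividing by length (45S left out) put C/D snoRNAs at 98.6%, annotated miRNAs at 0.796%, snRNAs at 0.215%, mitochondrial rRNAs at 0.00236%, U3 at 0.0120%, mitochondrial tRNAs at 0.0325%, miscellaneous RNAs at 0.00556% and Cajal body RNAs at 0.000984%. On that scale other protein-coding hosts held 17.0% of the snoRNA level, and the leading hosts held 30.9% (Gas5), 10.7% (2410006H16Rik), 5.37% (Zfas1), 7.31% (Rpl17), 5.25% (Snhg1), 4.86% (Eif4a2), 4.51% (Rpl7a) and 2.65% (Rpl5). With Gm26224 left out of the total, C/D snoRNAs held 91.6%, 45S pre-rRNA 5.88%, annotated miRNAs 1.14%, snRNAs 0.489%, mitochondrial rRNAs 0.0433%, mitochondrial tRNAs 0.0326%, miscellaneous RNAs 0.0185% and Cajal body RNAs 0.00208%, and the host types held 44.5% (long non-coding), 35.3% (ribosomal protein), 20.1% (other protein-coding) and 0.158% (no host). These shifts follow from the changed total. A minimum of 10 counts left 594 of 1017 features in all 3 libraries. The ratio of C/D to H/ACA reads was 185 as a mean, and 486 with features classed by symbol only, which leaves every provisional snoRNA out of both classes, Gm25117 and Gm26224 among them. Among alternatives chosen after the data were seen, leaving out Gm25117 gave an H/ACA share of 0.226% and a ratio of 423, and counting only named miRNA genes gave 0.255% in place of 0.942%. For the named features reported here TMM and RLE scaling moved a level by at most 1.03-fold, while leaving out 1 library moved 9 of those above 2 CPM by over 1.5 times. Without WT replicate 3 Gm25117 was at 2258 CPM and 3 Rnu3b features at up to 20.6 CPM, without WT replicate 1 Snord15a was at 73.8 CPM, and without WT replicate 2 Mir126a was at 1.98, Gm47299 at 4.57 and the 2 Gm24105 features at 3.31 and 3.71 CPM. No paired analysis was possible because 1 group is described and no groups were compared. The main limits are the gel cut, which sets which lengths are seen, the unknown strand and multi-mapping settings, and 3 libraries that may not be separate animals.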
